A study of Homo sapiens with 6 samples.

Results

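Transcripts of the AP-1 transcription factor genes were compared between 92.1 cells given 1 µM VS-4718 for 2 h and 92.1 cells given DMSO alone as vehicle. The 92.1 line is an established line of human uveal melanoma. The compound blocks focal adhesion kinase (FAK), the tyrosine kinase that relays signals from integrins at cell contacts with the matrix. Both groups were grown in RPMI-1640 with fetal bovine serum, and each held 3 libraries, so the comparison is of 1 cell line, 1 dose and 1 time. Whether the libraries stem from separate cultures is not in the labels, and the p-values therefore reflect the spread of these libraries, which may be technical. The genes were chosen by name, with earlier results of these data known: JUN, JUNB, JUND, FOS, FOSB, FOSL1, FOSL2, ATF3, MAFF and MAFK, which makes 10 genes. Of these, 8 had a row among the 12306 gene rows of the deposited table, and FOSL1 and MAFK were not analysed here. The 7 other than FOSB also passed the filter on low values, which left 9229 rows to test.

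AP-1 is a set of dimers of basic leucine zipper proteins that bind short DNA elements in promoters and enhancers. JUN proteins pair with each other or with FOS proteins, while FOS proteins need a JUN partner. ATF3 pairs with itself or with JUN proteins, and the small MAF proteins MAFF, MAFG and MAFK bind DNA with each other or with CNC and BACH proteins. Many of these genes are immediate early genes, whose short-lived mRNAs follow growth factor, adhesion and stress signals carried by the ERK, JNK and p38 kinases. JNK phosphorylates JUN, and JUN with ATF2 acts on the promoter of JUN itself.

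The promoters of 5 members are shown because 4 of them, JUN, ATF3, MAFF and JUND, belong to the rows whose libraries did not overlap between the groups, and JUNB is their relative with a higher mean. Such rows were 16.4% of all tested rows, 11.2% with VS-4718 below. The windows shown were thus picked by the values of the groups, and those of FOS, FOSB and FOSL2 are not written out. Each window runs from 250 bases before to 50 bases after a RefSeq start site (GRCh38.p14) and is written on the strand of the gene. Capitals mark a match to the TPA response element TGACTCA or TGAGTCA, the cyclic AMP response element TGACGTCA, the JUN-type element TGACATCA or the CArG box that SRF binds, searched on both strands. Each of these windows held at most 1 match. The windows are chr1:58783998-58784297 on the minus strand for JUN, chr1:212565157-212565456 on the plus strand for ATF3, chr22:38201744-38202043 on the plus strand for MAFF, chr19:18281573-18281872 on the minus strand for JUND and chr19:12791236-12791535 on the plus strand for JUNB.
JUN: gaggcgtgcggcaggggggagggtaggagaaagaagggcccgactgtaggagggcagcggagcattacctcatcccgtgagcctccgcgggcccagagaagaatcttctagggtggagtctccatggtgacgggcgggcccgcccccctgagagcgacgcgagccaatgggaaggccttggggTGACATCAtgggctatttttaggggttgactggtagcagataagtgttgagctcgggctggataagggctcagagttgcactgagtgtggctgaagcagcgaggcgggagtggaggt
ATF3: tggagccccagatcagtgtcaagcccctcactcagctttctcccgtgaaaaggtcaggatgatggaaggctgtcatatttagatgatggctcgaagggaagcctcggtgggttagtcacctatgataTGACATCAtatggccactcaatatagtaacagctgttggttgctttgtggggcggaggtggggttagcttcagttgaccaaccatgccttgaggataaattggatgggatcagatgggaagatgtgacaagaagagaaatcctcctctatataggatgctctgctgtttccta
MAFF: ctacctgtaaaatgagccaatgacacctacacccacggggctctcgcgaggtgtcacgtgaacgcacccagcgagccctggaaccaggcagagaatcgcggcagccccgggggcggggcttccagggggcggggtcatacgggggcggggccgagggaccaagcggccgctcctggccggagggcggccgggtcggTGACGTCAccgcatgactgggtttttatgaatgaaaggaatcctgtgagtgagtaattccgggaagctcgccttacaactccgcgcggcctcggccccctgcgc
JUND: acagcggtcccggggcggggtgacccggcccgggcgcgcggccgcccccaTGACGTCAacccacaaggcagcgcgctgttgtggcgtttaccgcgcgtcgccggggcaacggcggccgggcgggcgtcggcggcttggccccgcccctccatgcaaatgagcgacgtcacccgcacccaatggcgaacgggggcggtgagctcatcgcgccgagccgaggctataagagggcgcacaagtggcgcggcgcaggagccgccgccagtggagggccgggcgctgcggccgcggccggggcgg
JUNB: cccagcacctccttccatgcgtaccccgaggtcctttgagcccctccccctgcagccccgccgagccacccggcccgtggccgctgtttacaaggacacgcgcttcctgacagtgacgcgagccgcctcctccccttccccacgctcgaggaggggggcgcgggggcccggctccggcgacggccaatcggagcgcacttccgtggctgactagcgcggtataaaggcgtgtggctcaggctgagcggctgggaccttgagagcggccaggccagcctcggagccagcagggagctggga

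The JUN window and the first ATF3 window each held the JUN-type element. It begins at -67 from the JUN start site and at -123 from the start site of that ATF3 window. The cyclic AMP response element stood at -200 in JUND and at -54 in the first window of MAFF, and JUNB held none of the 4 motifs. Of the other members, FOSL2 had a TPA response element that begins 5 bases into the transcript. The windows of FOS and FOSB held none of the 4 in the spellings searched. Across the 35116 windows of 300 bases in the RefSeq table, 2.61% held the JUN-type element, 1.85% the cyclic AMP response element, 4.95% the TPA response element, 1.29% a CArG box and 10.3% at least 1 of them. The table gave a second window for ATF3 and for MAFF, and neither held a match. ATF3 has 11 annotated transcripts and MAFF 8, and start sites outside these windows were not searched. The matches therefore describe single windows of these genes and not all of their promoters. The shorter GC box GGGCGG, found in 45.0% of all windows, was in the first window of 7 of the 8 members, JUNB being the exception. CCAAT, found in 34.6%, was in those of JUN, JUNB, JUND, ATF3 and MAFF. A match is a stretch of letters in this window and was not measured as a binding site. Variant spellings and elements outside the window were not searched, so a window without a match does not mean a promoter without such elements. Whether the motifs go with the differences between the groups was not tested.

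Values were deposited as log2 of what behaves like TPM, abundance per transcript length set to a fixed total. Read totals are lost in it, and library depth is unknown. Row names follow mouse gene symbols in capitals although the cells are human, and rows with no human match held 43.5% to 44.7% of the summed values of a library. The transcript set used for matching is not given in the sources, so a level describes a row of this table, and levels of different genes are compared with that limit. Of 10 melanocyte lineage markers, 7 were tested. In vehicle the log2 levels were 12.21 ± 0.07 (SD, n = 3) for the melanosome gene PMEL, 11.21 ± 0.06 for TYRP1, 8.20 ± 0.04 for the lineage factor SOX10, 6.0 ± 0.01 for EDNRB, 5.58 ± 0.07 for GPR143, 5.55 ± 0.17 for MITF and 4.33 ± 0.08 for PAX3. Those of DCT (0.63 ± 0.06), MLANA (-1.82 ± 1.02) and TYR (-2.2 ± 0.72), all pigment genes, lay below the filter. Fibroblast markers summed to between 0.631 and 1.52 TPM-like units in vehicle and between 1.22 and 1.72 with VS-4718 (5 of 8 with a row), immune markers to at most 0.158 and 0.177 (2 of 9), and epithelial ones to at most 0.501 and 0.473 (1 of 7). Endothelial markers, 3 of 7 with a row, summed to 21.9 to 26.6 and 23.9 to 28.8.

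JUN showed the largest difference of the members. Its row was lower in every VS-4718 library than in any vehicle library, at about a ratio of 0.366, but it did not pass the test across all rows. ATF3, MAFF and JUND were lower by smaller amounts, JUNB had a slightly higher mean, and FOS, FOSB and FOSL2 overlapped between the groups. Of the 7 tested members none passed limma with Benjamini-Hochberg adjustment at 0.05, against 12 of 9229 rows (0.130%) over the table. At an unadjusted p under 0.05 there were 4, all lower, against 9.76% of all tested rows in either direction and 6.74% in the lower one. Because the members were chosen with earlier results of these data known, such counts beside table-wide shares are description and test nothing. The same holds for the gene lists below. In bulk RNA, fewer cells that carry a transcript and less of it per cell cannot be told apart.

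**Figure D1:**
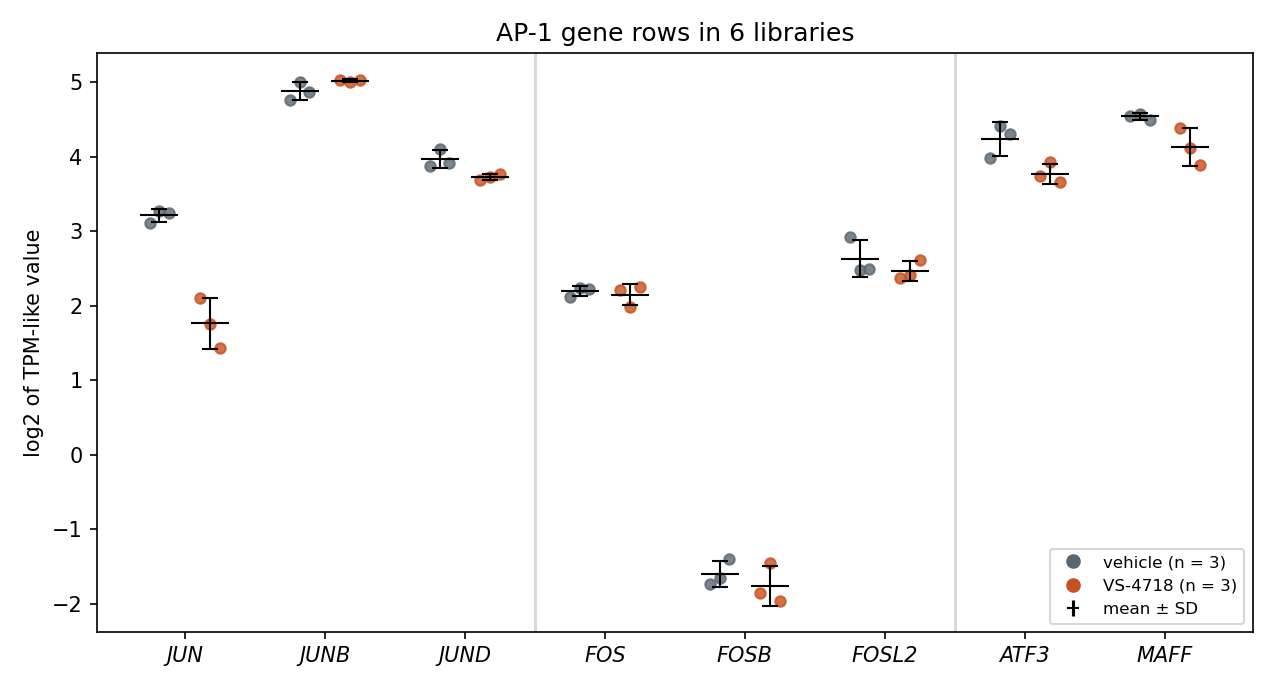
Each point is the log2 TPM-like value of 1 library for the 8 members with a row (vehicle left, VS-4718 right), with the mean and SD of 3 libraries as bars. The JUN points with VS-4718 lie between 1.43 and 2.11, all under the vehicle points at 3.11 to 3.28.

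The JUN family comes first, since its proteins can form AP-1 with or without a FOS partner. JUN, the founding member, stood at 3.11, 3.28 and 3.25 log2 units in the vehicle libraries and at 2.11, 1.76 and 1.43 with VS-4718. The groups were 1.008 log2 units apart at their nearest libraries. The vehicle libraries lay close together, while the treated ones were spread more widely, with an SD of 0.34 against 0.09. Of all tested rows 87.0% had a smaller SD than JUN with VS-4718, and 33.9% had a smaller one in vehicle. The JUN row is also low: 24.5% of tested rows had a lower mean, against 25.6% for FOSL2 and 19.5% for FOS. On the linear scale the means were 9.29 ± 0.55 and 3.46 ± 0.81 TPM-like units (SD, n = 3 each). The log2 fold change was -1.45 (SE 0.18, 95% interval -1.89 to -1.01, limma adjusted p = 0.0723). By fold change it was the 11th lowest of the 9229 tested rows, and by p-value it ranked 15th. Only 34 rows (0.368%) were lower by at least 1 log2 unit. An exact two-sided permutation test with 3 libraries a side has 0.1 as its smallest p, and JUN was at that value.

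JUNB, which often acts as a weaker activator than JUN and can restrain it, had the highest level of the members. It stood at 4.77, 5.01 and 4.87 log2 units in vehicle and at 5.03, 5.0 and 5.04 with VS-4718. The lowest treated library was just under the highest vehicle library, so the groups overlapped. The log2 fold change of JUNB was 0.14 (SE 0.08, 95% interval -0.05 to 0.33, adjusted p = 0.618), so a rise of more than 0.33 log2 units lies outside that interval. JUND, the member of the family usually present in resting cells, stood at 3.88, 4.10 and 3.91 log2 units in vehicle and at 3.69, 3.73 and 3.77 with VS-4718. Its groups did not overlap but were only 0.10 log2 units apart. The difference in JUND was -0.23 (SE 0.09, 95% interval -0.45 to -0.01, adjusted p = 0.497).

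Within the summed TPM-like values of the 3 JUN family rows, the part taken by JUN was smaller with VS-4718. JUN made up 17.1%, 16.4% and 17.7% of the sum in vehicle and 8.63%, 6.96% and 5.47% with VS-4718. The share of JUNB went from between 53.9% and 54.5% to between 65.4% and 66.7%, and that of JUND from between 28.0% and 29.1% to between 25.9% and 27.8%. The 3 shares do not overlap between the groups, and a share can move through any of the 3 rows. The sum itself was 54.5 ± 4.21 TPM-like units in vehicle and 49.3 ± 0.587 with VS-4718 (SD, n = 3). Inside each library, JUN lay below JUNB by 1.67 ± 0.06 log2 units in vehicle and by 3.26 ± 0.34 with VS-4718, a change that a single scaling factor per library leaves as it is. For this difference an exact permutation test (two-sided, n = 3 each) gave 0.1 (0.215 adjusted over the 28 pairs of members), again the smallest p it allows, so it cannot pass 0.05.

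**Figure D2:**
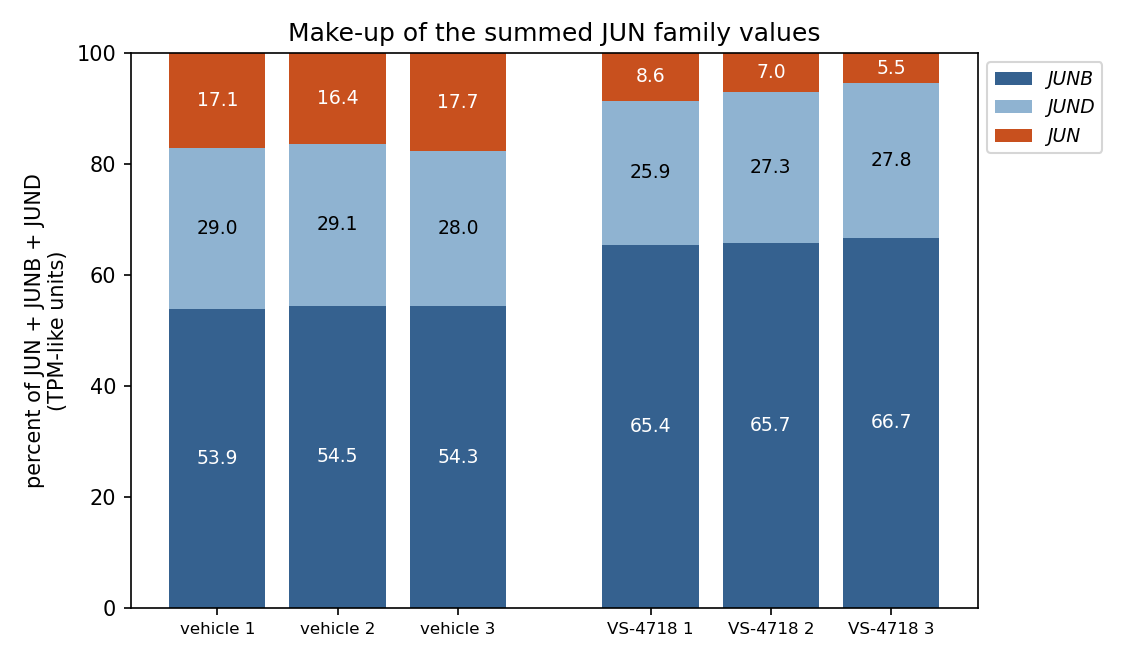
Stacked bars give the percent of the summed JUN, JUNB and JUND values (TPM-like units, linear scale) in each of the 6 libraries. The JUN segment is 16.4% to 17.7% in the vehicle libraries and 5.47% to 8.63% in the VS-4718 libraries.

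The FOS family rows were low and did not separate the groups. FOS, the classical partner of JUN and a target of SRF and ERK signalling, stood at 2.12, 2.24 and 2.22 log2 units in vehicle and at 2.21, 1.99 and 2.25 with VS-4718. The treated libraries lay on both sides of the vehicle ones. Its log2 fold change was -0.05 (SE 0.13, 95% interval -0.35 to 0.26, adjusted p = 0.921), and the sign turned to 0.03 without VS-4718 replicate 2. FOSL2, also called FRA2, stood at 2.93, 2.47 and 2.5 log2 units in vehicle and at 2.38, 2.41 and 2.62 with VS-4718. One vehicle library was high and the other two lay among the treated values. The difference in FOSL2 was -0.17 (SE 0.16, 95% interval -0.55 to 0.22, adjusted p = 0.765), and without vehicle replicate 1 it was -0.02.

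FOSB had the lowest level of the members, with between 0.30 and 0.38 TPM-like units in vehicle and between 0.26 and 0.36 with VS-4718. On the log2 scale its libraries ran from -1.73 to -1.40 and from -1.97 to -1.45, which overlap. FOSB was below the filter of a mean over 0.70 log2 units, so it had no test. In a fit with no filter its log2 fold change was -0.16 (SE 0.30, limma adjusted p = 0.901). The 3 FOS family rows together held 11.2 ± 0.928 TPM-like units in vehicle and 10.3 ± 0.778 with VS-4718 (SD, n = 3), without FOSL1.

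ATF3 and MAFF, which are induced in many cells by stress and growth signals, were lower without overlap. ATF3, a repressor or activator depending on its partner, stood at 3.99, 4.42 and 4.31 log2 units in vehicle and at 3.74, 3.92 and 3.66 with VS-4718. The lowest vehicle library was only 0.06 log2 units above the highest treated one. The log2 fold change of ATF3 was -0.46 (SE 0.14, 95% interval -0.79 to -0.14, adjusted p = 0.376). MAFF, a small MAF protein that has no activation domain of its own, stood at 4.55, 4.58 and 4.49 log2 units in vehicle and at 4.39, 4.12 and 3.89 with VS-4718. The vehicle values were tight and the treated ones were spread, as in JUN, and the gap between the groups was 0.11 log2 units. The difference in MAFF was -0.41 (SE 0.13, 95% interval -0.72 to -0.10, adjusted p = 0.400).

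In JUN and in MAFF the same treated library was highest and the same one lowest. The log2 difference JUN minus MAFF was -2.28, -2.36 and -2.46 in the treated libraries, an SD of 0.09, although JUN alone had an SD of 0.34 there and MAFF one of 0.25. In vehicle the difference was -1.33 ± 0.10 (SD, n = 3). For JUN minus ATF3, by comparison, the treated libraries had an SD of 0.33. JUN and MAFF were picked from the 28 pairs of members because of their values. JUNB minus JUND had a smaller SD in the treated libraries (0.04), where JUNB alone had 0.02 and JUND alone 0.04. These are values of 3 libraries and carry no test.

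**Figure D3:**
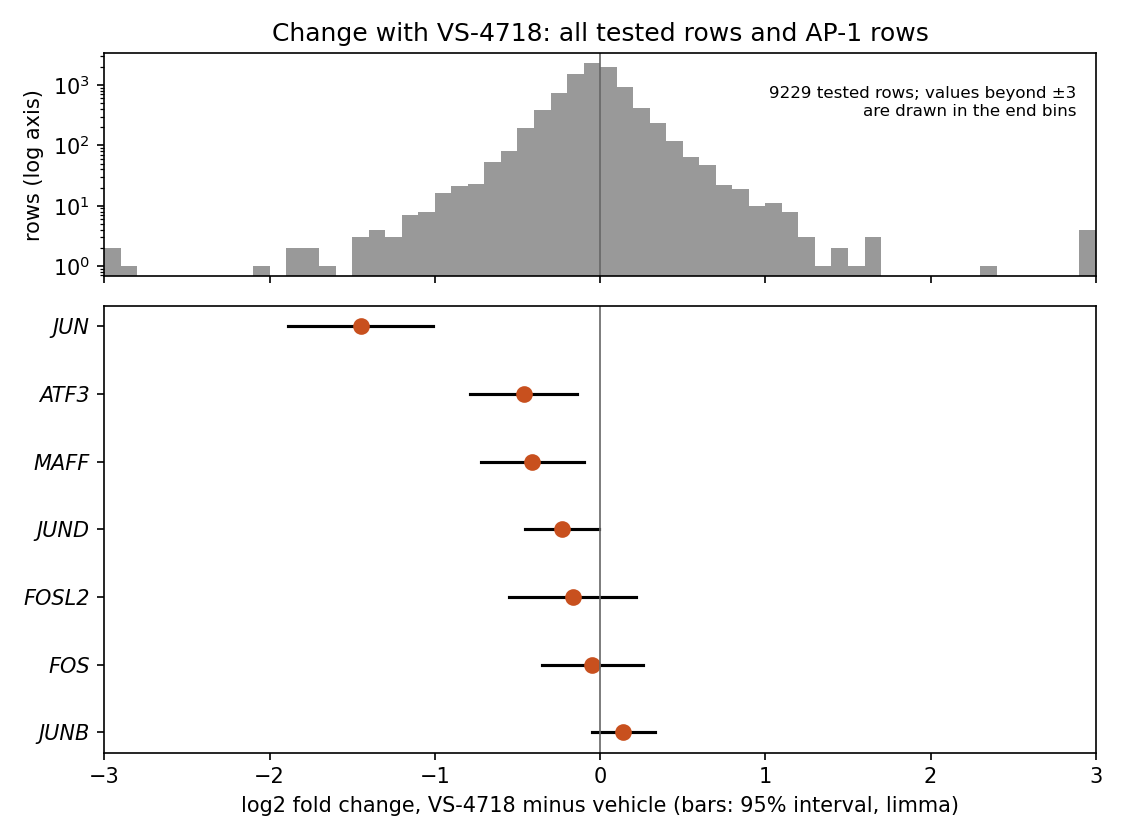
The upper panel is a histogram (log count axis) of the log2 fold changes of all 9229 tested rows, and the lower panel gives the 7 tested members with their 95% limma intervals. JUN, at -1.45, lies in the thin lower tail, while FOS, FOSL2 and JUNB have intervals that include 0.

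Of the 7 tested members 6 had a lower mean with VS-4718, against 58.2% of all tested rows, and their median log2 fold change was -0.23, against -0.03 over all tested rows. The groups did not overlap in 4 of the 7, all with VS-4718 below. Over all tested rows 16.4% did not overlap, 11.2% with VS-4718 below. These counts too are description, since the members were chosen with earlier results known. In vehicle the levels ran in the order JUNB, MAFF, ATF3, JUND, JUN, FOSL2, FOS and FOSB. Only ATF3 and JUND, among neighbours in that order, had libraries that overlapped. With VS-4718 the order was JUNB, MAFF, ATF3, JUND, FOSL2, FOS, JUN and FOSB, so that JUN lay below FOSL2 and FOS. In that group MAFF overlapped with ATF3, ATF3 with JUND, and FOS with JUN. The 8 rows summed to between 102 and 115 TPM-like units in vehicle and between 87.7 and 94.3 with VS-4718.

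The human genes of these rows are all protein coding in GENCODE 29 on GRCh38, and the values are per gene, with no exon singled out. JUN lies on chromosome 1 from 58780788 to 58784327 and has 1 exon, as does JUNB on chromosome 19 from 12791496 to 12793315. JUND lies on chromosome 19 from 18279760 to 18281622. FOS is on chromosome 14 from 75278774 to 75282230, FOSB on chromosome 19 from 45467995 to 45475179 and FOSL2 on chromosome 2 from 28392448 to 28417312. ATF3 spans 212565334 to 212620777 on chromosome 1 and MAFF 38200767 to 38216511 on chromosome 22. HOOK2 overlaps JUNB, PLA2G6 overlaps MAFF, ERCC1 overlaps FOSB and FLJ31356 overlaps FOSL2, each on the opposite strand, and the sense intronic gene AC104695.3 overlaps FOSL2 on its own strand. The use of strand is not given in the sources, so reads from such partners cannot be told apart.

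Other basic leucine zipper relatives of AP-1 showed no called row (5 of 12 tested, 2 lower, median 0.01). BATF3, which pairs with JUN proteins in immune cells, went from 4.45 ± 0.05 to 4.23 ± 0.09 log2 units (SD, n = 3 each, limma adjusted p = 0.476). MAFG, another small MAF, had a higher level than MAFF and stood at 6.0 ± 0.08 and 5.95 ± 0.06. The partners of small MAF proteins had no called row either (5 of 7 tested, 4 lower, median -0.01). Over all tested rows 58.2% were lower. NFE2L1, a CNC factor that controls proteasome genes, went from 6.96 ± 0.13 to 7.17 ± 0.03 (adjusted p = 0.452).

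No kinase gene above JUN and FOS was called. In the JNK and p38 list 14 of 19 genes were tested, 9 with lower means (median -0.04), against 58.2% of all tested rows. Of the 14, 3 had an unadjusted p under 0.05, against 9.76% of all tested rows. MAPK8, which encodes the JUN kinase JNK1, had a log2 fold change of 0.54 (SE 0.21, adjusted p = 0.489). MAP2K4, which activates JNK, had one of -0.32 (SE 0.13, adjusted p = 0.498), and MAP2K3, which activates p38, one of -0.22 (SE 0.08, adjusted p = 0.461). MAP3K5, a stress kinase above JNK and p38 that is named because of its values, was below the filter and had no test. It stood at 1.43, 1.04 and -0.07 log2 units in vehicle and at -1.83, -0.95 and -1.41 with VS-4718, without overlap. In the ERK list 13 of 14 were tested, 8 lower, with a median of -0.01 and no unadjusted p under 0.05. RPS6KA2, a kinase that ERK activates, ranked first by p-value there, with a log2 fold change of 0.42 (SE 0.26, adjusted p = 0.649). Factors that bind the FOS and JUN promoters had 15 of 16 tested, 8 lower, a median near 0 and no unadjusted p under 0.05. MEF2A, of a family that binds the JUN promoter, had a log2 fold change of -0.30 (SE 0.14, adjusted p = 0.562), CRTC2, a coactivator of CREB, one of 0.11 (SE 0.08, adjusted p = 0.686) and ELK4, a partner of SRF, one of -0.25 (SE 0.19, adjusted p = 0.688).

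Genes of AP-1 mRNA and protein turnover had 10 of 12 tested and 8 lower, against 58.2% of all tested rows. The median was -0.13, and none was called. Of the 10, 2 had an unadjusted p under 0.05, both lower, against 6.74% of all tested rows in that direction. HNRNPD, also called AUF1, which binds the AU-rich elements of short-lived mRNAs, went from 8.82 ± 0.07 to 8.56 ± 0.02 log2 units (adjusted p = 0.184). ZFP36L2, which speeds the decay of such mRNAs, went from 5.55 ± 0.07 to 5.24 ± 0.06 (adjusted p = 0.251). FBXW7, the ubiquitin ligase subunit that recognises phosphorylated JUN, went from 2.05 ± 0.14 to 1.79 ± 0.10 (adjusted p = 0.590). ZFP36, of the same list and named because of its values, was below the filter and had no test. It was low but higher without overlap, at 0.67, 0.70 and 0.78 TPM-like units in vehicle and 0.89, 0.89 and 1.14 with VS-4718. MAP kinase phosphatases had all 10 tested, 7 lower (58.2% of all tested rows were lower), with a median of -0.18. An unadjusted p under 0.05 was found for 4 of the 10, all lower, against 6.74% of all tested rows in that direction, and none was called. DUSP2 had a log2 fold change of -0.65 (SE 0.13, adjusted p = 0.237), DUSP6 one of -0.43 (SE 0.09, adjusted p = 0.251) and DUSP7 one of -0.28 (SE 0.08, adjusted p = 0.361).

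Genes known as AP-1 targets had 13 of 35 tested, since 14 were not analysed here and the others were below the filter. Of the 13, 9 had lower means, against 58.2% of all tested rows, and the median was -0.07. An unadjusted p under 0.05 was found for 3, all lower, against 6.74% of all tested rows in that direction. None was called. CCND1, which encodes cyclin D1, went from 6.22 ± 0.07 to 5.94 ± 0.05 log2 units (adjusted p = 0.257). ETS1, a transcription factor, went from 7.35 ± 0.07 to 7.16 ± 0.06 (adjusted p = 0.376), and SQSTM1, an autophagy receptor, from 8.88 ± 0.07 to 8.72 ± 0.05 (adjusted p = 0.401). Other immediate early genes had 16 of 24 tested, 5 lower (58.2% of all tested rows were lower) and 11 higher, with a median of 0.11. Of the 16, 3 lower and 3 higher ones had an unadjusted p under 0.05, against 9.76% of all tested rows in either direction. CCN1, a secreted matrix protein listed under its older name CYR61, was the 1 called gene of the 101 tested in these lists, against 0.130% of all tested rows. It fell by 0.71 log2 units (SE 0.07, limma adjusted p = 0.0233), a call lost whichever of the 6 libraries was omitted (limma adjusted p from 0.0913 to 0.171). EGR1, a zinc finger factor that responds to SRF and ERK as FOS does, went from 1.78, 1.79 and 1.84 in the vehicle libraries to 2.69, 2.67 and 2.63 with VS-4718 (log2 fold change 0.86, SE 0.11, adjusted p = 0.0723). It therefore lay on the other side of vehicle from JUN, with FOS between them. EGR2, of the same list and named because of its values, went the other way from EGR1. Its log2 fold change was -0.94 (SE 0.39, limma adjusted p = 0.506), and its groups overlapped. BTG1, an antiproliferative gene, had a log2 fold change of 0.51 (SE 0.10, adjusted p = 0.209).

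**Figure D4:**
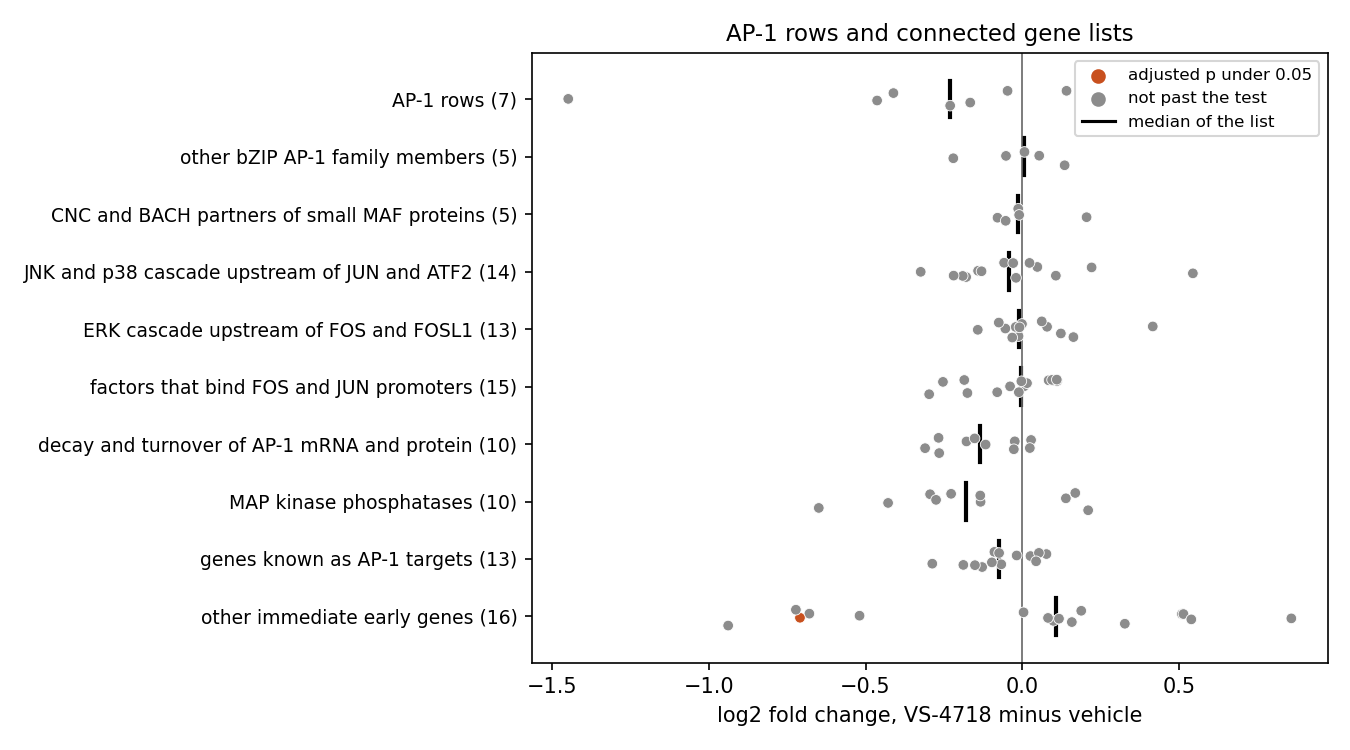
Each point is the log2 fold change of 1 tested gene (VS-4718 minus vehicle) in the AP-1 rows and 9 connected lists, with the number tested in brackets and a black line at the median; jitter is vertical only. JUN at -1.45 is the lowest point drawn, and CCN1 at -0.71 is the 1 gene past the adjusted threshold.

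Rows whose pattern over the 6 libraries was most like a member were found by the root mean square difference of row-centred log2 values, among tested rows with a human name. For JUN the nearest rows were USP35, a deubiquitinase (0.30 log2 units), JPH1, a junctophilin (0.31), and AMOTL2, an angiomotin family member (0.31). USP35 went from 2.53 ± 0.25 to 1.55 ± 0.50, JPH1 from 2.28 ± 0.24 to 1.33 ± 0.22 and AMOTL2 from 3.63 ± 0.35 to 2.43 ± 0.35 (SD, n = 3). For MAFF the nearest was SH3D19 (0.03), for ATF3 SDCCAG3 (0.08) and for JUND PDSS1 (0.03). For JUNB it was TBC1D17 (0.03) and for FOS ADD3 (0.02). The distance is not scaled, so it grows with the size of a row's own change.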

How the data were processed

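Total RNA of 92.1 cells went through TRIzol and a column, and a company made and sequenced the libraries, per the labels' protocols. The submitters' processing notes name kallisto and GRCh38. Version, index, strandedness and filters: not given in the sources used here. Each deposited value is a log2 abundance per gene symbol. Put back on the linear scale, columns sum to between 836527 and 840714, which is why they are called TPM-like. Of 12306 rows, 9351 carried a current human symbol and 286 a synonym of a single human gene.

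Groups were compared on the deposited log2 values with limma-trend (limma 3.58.1, R 4.3.3), group being the only term. Rows above the lowest 25% by mean were kept. Two-sided p-values were adjusted over 9229 rows (Benjamini-Hochberg, threshold 0.05). Intervals of 95% use limma's moderated SE and degrees of freedom. The script was tested on simulated data. The members and the gene lists were chosen with earlier results of these data known. Named were all members, up to 3 genes with the smallest p of each of 9 lists, the melanocyte markers, and the nearest rows of each tested member, of which the text gives 3 for JUN and 1 each for 5 others. Further list genes named because of their values are marked so in the text. Library numbers were not taken as pairs. The alternatives tried were: each library left out, a replicate block, median scaling, no filter, a stricter filter, a pseudocount of 1, limma without trend, quality weights, robust variances and human names only. Promoter windows are from RefSeq (GRCh38.p14) and gene positions from GENCODE 29. Figures were drawn with matplotlib 3.10.9.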

Additional observations from a re-analysis of the deposited data

How the results depend on the processing

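No member was called under any of the alternatives run. JUN stayed lower in all 14 alternatives that tested it, with log2 fold changes from -1.62 to -1.22 and adjusted p from 0.055 to 0.333; the block gave the highest. With a library left out, JUN ran from -1.62 to -1.28. The stricter filter (mean above that of the lowest 50% of rows) did not test JUN, FOS or FOSL2, so that 3 of 4 tested members were lower there. ATF3 kept values from -0.59 to -0.37, MAFF from -0.54 to -0.29, JUND from -0.27 to -0.16, JUNB from 0.08 to 0.20 and FOSL2 from -0.25 to -0.02. FOS ran from -0.10 to 0.033 with a library left out, positive without VS-4718 replicate 2, where 5 of 7 members were lower. Other signs near 0 that turned with a library left out were those of ATF7 (-0.031 to 0.23) and KEAP1 (-0.10 to 0.03). The count of 12 called rows over the table was 0 in limma without trend and 0 with the replicate block, where 910 and 793 rows had an unadjusted p under 0.05, and 0 to 7 with a library left out. Same-numbered libraries had residual correlations across genes of 0.13, 0.05 and 0.03, and differently numbered ones from -0.09 to 0.05. For VS-4718 replicate 3 the highest value was with vehicle replicate 2 (0.05). These values do not settle whether the numbers are pairs. The design text names no block, and the main fit did not use the numbers. Fewer degrees of freedom remain under the block and with 5 libraries; the cause in limma without trend was not tested. CCN1 lost its call in 8 of 15 alternatives, with adjusted p from 0.0142 to 0.199. The median scaling gave JUN -1.42 (adjusted p = 0.0975). TPM-like values keep no depth, so how far read numbers limit FOSB, JUN or FOS was not tested.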
